A study of Homo sapiens with 23 samples.

Results

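The 10 genes described here are AKR1C1, AKR1C2, AKR1C3, AKR1B10, ALDH3A1, NQO1, GCLC, GCLM, TXNRD1 and HMOX1, which encode enzymes that detoxify carbonyls and quinones, make glutathione, keep thioredoxin reduced or break down heme. They are defined by name, as targets of the transcription factor NRF2 and aldo-keto reductases of the same detoxification pathways. The set was chosen with earlier results of these data known, which limits any comparison of its counts and medians with all genes. Each was read from 1 main probe set, which had to be assigned to exactly 1 gene and to have the highest mean log2 signal of that gene over all arrays. All 10 were found, of 19775 genes with such a probe set.

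NRF2, the product of NFE2L2, is a basic leucine zipper factor that the adaptor KEAP1 sends for degradation in unstressed cells. Electrophiles and oxidants modify KEAP1, so that NRF2 accumulates, pairs with a small MAF protein and binds antioxidant response elements, and BACH1 competes for the same elements as a repressor. AKR1C1, AKR1C2, AKR1C3, NQO1, GCLC, GCLM and TXNRD1 are well known human NRF2 targets in epithelial cells. ALDH3A1 and NQO1 are also targets of the aryl hydrocarbon receptor, and HMOX1 is held down by BACH1 until heme displaces it.

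RNA was measured on 23 Affymetrix Human Genome U133 Plus 2.0 arrays of MCF10A-ER-Src cells, a non-transformed human mammary epithelial line that carries the Src kinase fused to a hormone-responsive part of the estrogen receptor. Src is switched on by 4-hydroxytamoxifen (TAM, 1 µM), ethanol (EtOH) is its vehicle, and the study asked which changes during the ensuing transformation need STAT3, a transcription factor activated by Src and by cytokines. Cells took up 25 nM of an siRNA pool, either a non-targeting one (siNEG, which the study also calls siSCM) or one against STAT3 (siSTAT3), grew for 48 h and were then treated with EtOH or TAM for 4 or 24 h. All 8 groups therefore share the ER-Src transgene, an siRNA transfection and a medium with charcoal-stripped horse serum, EGF, insulin, hydrocortisone and cholera toxin. With no group that lacks the transgene, Src activation and other effects of TAM cannot be told apart. Each group had 3 arrays, except siSTAT3 cells with TAM for 24 h, where replicates 2 and 3 were used and replicate 1 was not analysed here. The methods call the replicates biological, but the sample labels do not say that they were separate cultures, so the p-values measure the spread between these samples. One line and one siRNA pool per arm were used, and in such bulk RNA fewer cells of a kind and less RNA per cell cannot be told apart.

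Signals are MAS5 values in arbitrary linear units, comparable between arrays for 1 probe set but not between probe sets. Median signal was 73.5 to 85.3 units per array and no pair of arrays was identical. STAT3 RNA ranged from 3914 to 6753 units on siNEG arrays and from 298 to 495 on siSTAT3 arrays, which left 6.52% to 9.52% of the siNEG level across the 4 matched conditions. Other probe sets assigned to STAT3 left 7.58% to 13.3%, except 1 set that stayed at 93.0% to 95.4% of the siNEG level with EtOH and 49.5% to 56.5% with TAM. The basal keratins KRT5 (13549.5 to 18817 units) and KRT14 (9428 to 20390 units) and the epithelial adhesion molecule EPCAM were high on every array, as were the luminal keratins KRT8 (2528 to 11004 units) and KRT18 (12395 to 19661 units), while KRT19, also luminal, was at 1.82 to 38.9 units. ESR1, also on the luminal list, was at 129 to 457 units. Of the leukocyte and endothelial markers, PTPRC, VWF and CDH5 did not exceed 56.1 units and CD3E reached 105, but CD14 was at 361 to 899 units and PECAM1 at 145 to 464. Of the markers listed for fibroblasts, the proteoglycan DCN was at 1463 to 7270.2 units and COL1A1 at 264 to 939. COL1A2, COL3A1, LUM and PDGFRB stayed at or below 72.1. Verbs such as rose, fell and differed are used below where limma gave an adjusted p (Benjamini-Hochberg, over all 54675 probe sets) under 0.05.

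Start-site sequence is shown for genes whose values are set against those of a relative below, the neighbouring AKR1C1 and AKR1C2, which moved together, and the glutathione synthesis pair GCLC and GCLM, which did not, and for TXNRD1, the member with most matches to the antioxidant element. Windows are from RefSeq on GRCh38.p14, run 5′ to 3′ on the gene's strand and hold 110 bases before the start and 10 from it on. Capitals mark matches to an antioxidant response element core (TGACNNNGC) or a STAT element (TTCCNGGAA), searched on both strands. Windows were listed for 7 of the 10 genes.
AKR1C1, chr10:4963305-4963424, plus strand: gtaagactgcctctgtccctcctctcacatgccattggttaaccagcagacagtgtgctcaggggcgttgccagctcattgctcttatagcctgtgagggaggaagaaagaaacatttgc
AKR1C2, chr10:5003848-5003967, minus strand: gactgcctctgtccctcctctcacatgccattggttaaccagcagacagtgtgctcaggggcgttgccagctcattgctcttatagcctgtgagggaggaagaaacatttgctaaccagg
GCLC, chr6:53545092-53545211, minus strand: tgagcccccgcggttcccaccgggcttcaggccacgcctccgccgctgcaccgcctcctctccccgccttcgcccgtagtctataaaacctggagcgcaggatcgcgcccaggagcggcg
GCLM, chr1:93909421-93909540, minus strand: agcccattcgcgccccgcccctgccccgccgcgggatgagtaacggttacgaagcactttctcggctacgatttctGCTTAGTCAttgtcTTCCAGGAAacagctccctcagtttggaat
TXNRD1, first start, chr12:104215669-104215788, plus strand: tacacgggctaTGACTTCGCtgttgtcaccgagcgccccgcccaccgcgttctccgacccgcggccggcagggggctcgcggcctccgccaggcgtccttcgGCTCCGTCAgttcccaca
TXNRD1, second start, chr12:104286922-104287041, plus strand: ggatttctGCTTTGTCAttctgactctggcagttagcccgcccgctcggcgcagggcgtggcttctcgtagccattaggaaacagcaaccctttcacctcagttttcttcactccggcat

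Over the full 300-base windows (250 bases before and 50 after the start), AKR1C1 and AKR1C2 were identical at 288 of 292 aligned bases (98.6%), AKR1C1 and AKR1C3 at 80.3%, and GCLC and GCLM at 59.1%. The 3 AKR1C genes lie side by side on chromosome 10. The antioxidant core was found in 13.3% of 35116 promoter windows of this length, and among the members in GCLM (34 bases before the start) and at both starts of TXNRD1 (99 and 8 bases before the first, 102 before the second). The STAT element was found in 1.15% of all windows and, of the members, in GCLM alone (20 bases before the start). AP-1 elements (TGACTCA and its reverse complement TGAGTCA), in 4.95% of all windows, were in no member's window, and an AP-1 element followed by GC would also match the antioxidant core. The xenobiotic core GCGTG, in 36.5% of all windows, was in those of NQO1, GCLC, GCLM and TXNRD1. These letters describe the windows alone, and more distant elements were not searched.

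After 24 h of TAM in siNEG cells, 7 of the 10 genes fell: the 3 AKR1C reductases, ALDH3A1, NQO1, GCLC and TXNRD1. None rose, and over all 19775 genes 9.31% fell and 6.06% rose in this comparison. The median log2 change of the 10 genes was -0.69, against -0.042 over all genes. AKR1B10, GCLM and HMOX1 were the members that did not pass the test.

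AKR1C1, AKR1C2 and AKR1C3 are NADPH-dependent reductases of ketosteroids and of aldehydes from oxidised lipids. AKR1C1 (probe set 204151_x_at) was at 9380.5, 9703 and 9394 units with EtOH and at 4603, 4709 and 4675 units with TAM. Its RNA fell by 1.03 on the log2 scale (SE 0.062, adjusted p = 5.12e-09), to 49.1% of the EtOH level. AKR1C2 (209699_x_at) gave 8301, 8063 and 8030.1 units with EtOH and 3861, 3952 and 3725 with TAM, a log2 change of -1.08 (adjusted p = 2.28e-09). For both genes the TAM arrays lay close together and far below every EtOH array. AKR1C3 (209160_at), the member of the cluster that makes testosterone and prostaglandin F, was at 4458, 4115 and 4183 units with EtOH and 3375, 3419 and 3061 with TAM. The groups did not overlap, but the change was smaller, -0.37 (SE 0.085, adjusted p = 0.0068), and passed no longer when arrays were centred on their median (adjusted p = 0.0734). The main probe sets of AKR1C1 and AKR1C2 carry the suffix x_at, which Affymetrix gives to sets with probes shared between similar transcripts, so the values of these near-identical genes are not independent and either may hold signal of the other.

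AKR1B10 (206561_s_at), a retinal and aldehyde reductase of another branch of the family, was at 303, 295 and 456 units with EtOH and 267, 212 and 214 units with TAM. No TAM array was above an EtOH array, and the log2 change of -0.58 missed the limit (SE 0.19, adjusted p = 0.0647). ALDH3A1 (205623_at), which oxidises aromatic and medium-chain aldehydes, showed the biggest change of the 10 genes. Its signals were 727, 636 and 839 units with EtOH and 91.4, 110.3 and 106 with TAM, with all TAM arrays near the level that was taken as low signal here (100 units). The fall was 7.14-fold, a log2 change of -2.84 (SE 0.15, adjusted p = 7.29e-10).

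NQO1 (210519_s_at), the quinone reductase that is often read as an index of NRF2 activity, was at 10924, 10784 and 10242 units with EtOH and 6832, 6957 and 6202 units with TAM. It fell to 62.5% of the EtOH level (log2 -0.68, adjusted p = 3.06e-05). GCLC (202923_s_at) is the catalytic subunit of glutamate-cysteine ligase, the rate-limiting enzyme of glutathione synthesis, and gave 3597, 4038 and 3832 units with EtOH against 1846, 1799 and 2028 with TAM. That is 49.5% of the EtOH level (log2 -1.02, SE 0.078, adjusted p = 8.56e-08). GCLM (203925_at), the modifier subunit of the same enzyme, was at 3451, 3674 and 3832 units with EtOH and 3951, 3688 and 3999 with TAM, so that the arrays overlapped. Its log2 change of 0.087 has a 95% interval of -0.086 to 0.26, which does not reach the change of its partner.

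TXNRD1 (201266_at), the cytosolic thioredoxin reductase, was at 4589, 4006 and 3601 units with EtOH and 2459, 2409.5 and 2645 with TAM. It fell by 0.69 on the log2 scale (adjusted p = 3.5e-05), though a fit of the 2 compared groups alone, which has few degrees of freedom, gave an adjusted p of 0.0558. HMOX1 (203665_at), the inducible heme oxygenase, gave 161, 177 and 105 units with EtOH and 133, 122 and 135 with TAM. One EtOH array lay below all TAM arrays, and the log2 change of -0.15 had an interval of -0.56 to 0.26.

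The marker lists were summed on the same arrays. The summed signal of 5 luminal epithelial markers was 27888 to 31232 units on the siNEG EtOH 24 h arrays and 21100.5 to 23343 on the siNEG TAM 24 h arrays, where 2 of the 5 fell, against 31813 to 34120.5 and 32085 to 38124 in siSTAT3 cells with EtOH and TAM. That of 6 fibroblast markers, nearly all of it DCN and COL1A1, was 5681 to 5941 units with EtOH and 6800 to 7846 with TAM in siNEG cells and 2899 to 3115 in siSTAT3 cells at 24 h, with 1 of 6 higher after TAM in siNEG cells. The sum of 2 basal markers was 35538 to 38796 units with EtOH and 31692 to 32871 with TAM in siNEG cells (0 of 2 passed by limma, 1 had an unadjusted p under 0.05), that of 3 endothelial markers 416 to 481 and 197 to 253 (1 of 3 fell), and that of 3 immune markers 841 to 1039.9 and 768 to 829.6 (0 of 3 passed, 1 had an unadjusted p under 0.05). The part of these differences in the results on the 10 genes was not tested.

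**Figure D1:**
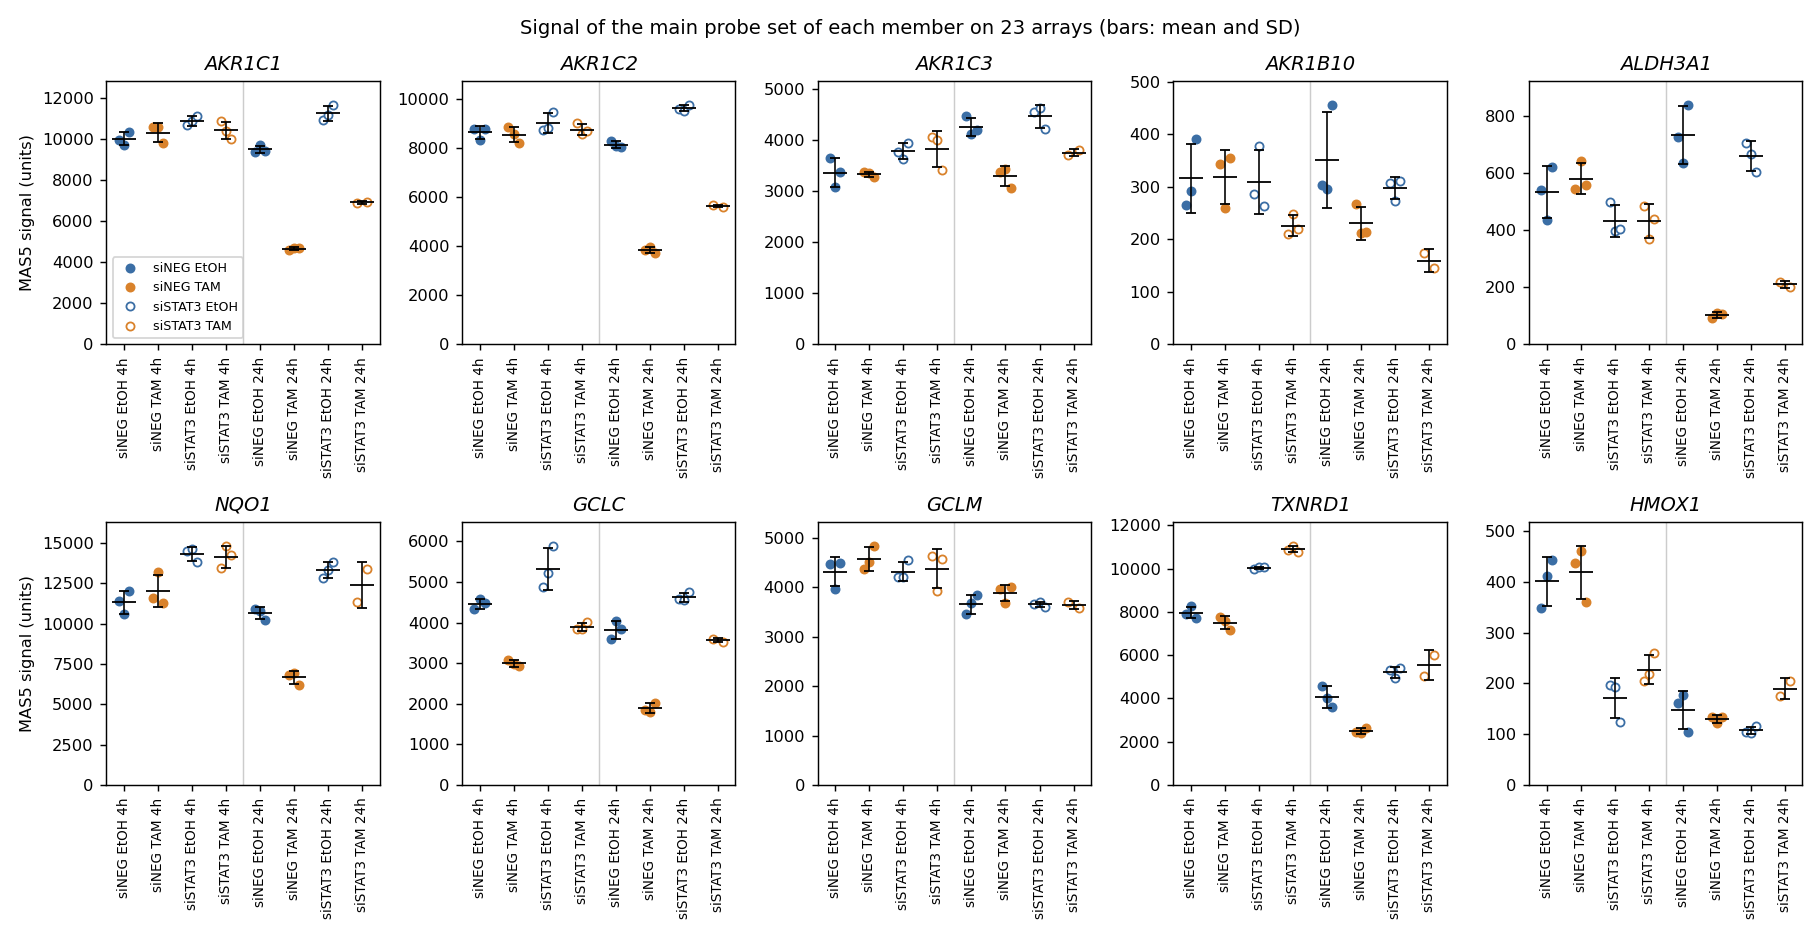
MAS5 signal (vertical axis, arbitrary linear units from 0) of the main probe set of each gene on 23 arrays, by siRNA, treatment and time, with blue for EtOH, orange for TAM, filled points for siNEG and open points for siSTAT3; the long line is the group mean and the bar its SD. The siNEG TAM 24 h arrays are the lowest for AKR1C1 (4603 to 4709 units), ALDH3A1 (91.4 to 110.3 units), NQO1, GCLC and TXNRD1, while the GCLM groups overlap their neighbours and HMOX1 is highest in siNEG cells at 4 h.

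At 4 h of TAM in siNEG cells, only GCLC had fallen (1 of 10 members, where 1.58% of all genes fell and 1.67% rose). GCLC was at 4336, 4571 and 4482 units with EtOH and 3088, 2988 and 2924 units with TAM, 2 sets of arrays that did not overlap. The log2 change was -0.57 (SE 0.078, adjusted p = 0.00031). Of 2 other GCLC probe sets with a geometric mean of at least 100 units, 1 passed in the same direction. A limma fit of the compared groups alone, with few degrees of freedom, gave an adjusted p of 0.158 for the main set. The other 9 genes had log2 changes between -0.087 (TXNRD1) and 0.13 (ALDH3A1), with adjusted p of at least 0.771. AKR1C1, for example, was at 9958, 9701 and 10338 units with EtOH and 10564, 10557 and 9791 with TAM at 4 h.

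Levels at 4 h were close to each other in most of the remaining genes. AKR1C2 had means of 8632 ± 250 and 8546 ± 316 units in siNEG cells and 9005 ± 404 and 8752 ± 228 in siSTAT3 cells, with EtOH and TAM in that order (SD, n = 3 each). AKR1C3 was at 3359 ± 278 and 3324 ± 53.9 units in siNEG and 3777 ± 153 and 3818 ± 353 in siSTAT3 cells. ALDH3A1, which was to fall so far by 24 h, held 533 ± 92 and 581 ± 53.1 units in siNEG and 434 ± 56 and 432 ± 58.8 in siSTAT3 cells. In these 3 genes the EtOH and TAM arrays of each siRNA overlapped. GCLM was at 4307 ± 294 and 4568 ± 243 units in siNEG and 4314 ± 194 and 4371 ± 393 in siSTAT3 cells, and AKR1B10 at 316 ± 66.5, 319 ± 51.4, 309 ± 60.7 and 226 ± 19.6 in the same order. AKR1B10 in siSTAT3 cells with TAM was the 1 group of these whose arrays all lay below those of its EtOH group, without passing the test (log2 -0.44, adjusted p = 0.502).

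The TAM effect at 24 h was compared directly with that at 4 h in a test chosen after the values were seen. In siNEG cells it was lower at 24 h for 6 of the 10 genes (2.62% of all genes were lower and 2.97% higher). The difference was -2.97 for ALDH3A1 (adjusted p = 1.9e-07), -1.07 for AKR1C1 and -1.07 for AKR1C2 on the log2 scale. For GCLC, which had already fallen at 4 h, a further -0.44 was added by 24 h (adjusted p = 0.0318). NQO1 and TXNRD1 gave -0.76 and -0.61. Of 7 other probe sets of these genes with a geometric mean of at least 100 units, 5 passed this test in the same direction.

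TAM for 24 h in siSTAT3 cells lowered 5 of the 10 genes and raised none, where 0.748% of all genes fell and 2% rose. They were AKR1C1, AKR1C2, AKR1B10, ALDH3A1 and GCLC. AKR1C1 was at 10911, 11164 and 11650.1 units with EtOH and 6865 and 6944 with TAM, or 61.4% of the EtOH level (log2 -0.70, adjusted p = 2.43e-05). AKR1C2 behaved alike, with 9585, 9505 and 9753 units against 5658 and 5609 (log2 -0.77, adjusted p = 8.3e-06). ALDH3A1 fell from 708, 668 and 605 units to 218 and 202, which was 31.9% of the EtOH level (log2 -1.65, adjusted p = 2.58e-05). In all 3 genes every TAM array lay well below every EtOH array, and how many of all genes separate so was not counted. A fit of these 5 arrays alone, with few degrees of freedom, called 0 of the 10 genes (adjusted p from 0.185 for ALDH3A1 upward).

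GCLC also fell in siSTAT3 cells, from 4573, 4551 and 4746 units to 3596 and 3526 (log2 -0.38, adjusted p = 0.0333). AKR1B10 went from 308, 274 and 311 units to 175 and 145 (log2 -0.90, adjusted p = 0.0419). Both calls rest on few arrays: leaving out any 1 of the 5 arrays compared ended either of them, with adjusted p of up to 0.245 for GCLC and 0.385 for AKR1B10. NQO1 was at 12793, 13341 and 13833 units with EtOH and 11366 and 13389.5 with TAM, with a log2 change of -0.11 and an interval of -0.31 to 0.093. For TXNRD1, 5315, 4923 and 5403 units stood against 5055 and 6021, a log2 change of 0.083 with an interval of -0.13 to 0.29. HMOX1 was higher on both TAM arrays (175 and 204 units) than on any EtOH array (105, 102 and 116 units) without passing the test (log2 0.82, adjusted p = 0.0714). AKR1C3 and GCLM had changes of -0.25 and -0.0041.

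At 4 h, GCLC was again the 1 gene that fell in siSTAT3 cells (0.288% of all genes fell and 0.531% rose), from 4865, 5218 and 5891 units with EtOH to 3833, 3852 and 4007 with TAM (log2 -0.45, adjusted p = 0.0118). The call ended without any of 3 arrays, siSTAT3 EtOH 4 h replicate 3 or siSTAT3 TAM 4 h replicate 1 or 2, where adjusted p was 0.0518 to 0.0619. In a limma fit of the compared groups alone the adjusted p was 0.552, and 1 of 2 other GCLC probe sets of at least 100 units passed. Between 4 and 24 h the TAM effect in siSTAT3 cells became lower for AKR1C1 (-0.64), AKR1C2 (-0.73) and ALDH3A1 (-1.64), 3 of 10 genes, where 0.116% of all genes were lower and 0.42% higher. Of 3 other probe sets of these genes with a geometric mean of at least 100 units, 2 passed in the same direction. For GCLC the difference was 0.07, with an interval of -0.18 to 0.32.

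**Figure D2:**
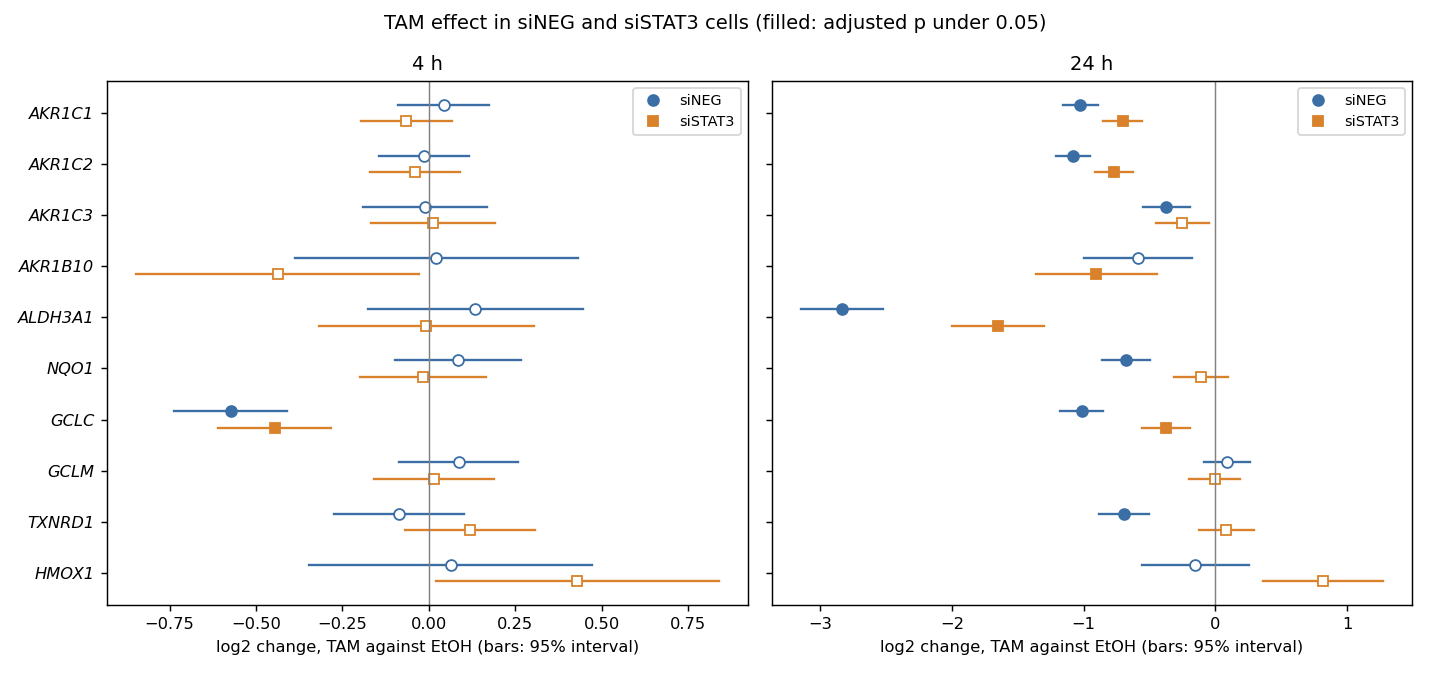
Log2 change of each gene with TAM against EtOH (horizontal axis) at 4 h and at 24 h, in siNEG cells (blue circles) and siSTAT3 cells (orange squares), with a wider axis in the 24 h panel; points are limma estimates, bars their 95% intervals, and filled points have an adjusted p under 0.05. At 4 h the filled points are those of GCLC alone (-0.57 and -0.45), and at 24 h ALDH3A1 lies farthest from 0, at -2.84 in siNEG and -1.65 in siSTAT3 cells.

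The interaction (siSTAT3 TAM effect less the siNEG one) tests whether the effect of TAM on a gene depended on STAT3 knockdown. At 24 h it was above 0 for 4 of the 10 genes, ALDH3A1, NQO1, GCLC and TXNRD1, and below 0 for none, where 3.42% of all genes were above and 2.49% below. The median over the 10 genes was 0.45, against 0.033 over all genes. ALDH3A1 had the biggest value, 1.19 (SE 0.22, adjusted p = 0.00361), so its fall was 7.14-fold in siNEG cells and 3.14-fold in siSTAT3 cells. The value of TXNRD1 was 0.78 (SE 0.13, adjusted p = 0.00185), that of GCLC 0.64 (SE 0.12, adjusted p = 0.00302) and that of NQO1 0.57 (SE 0.13, adjusted p = 0.0164). NQO1 lost the call without siSTAT3 TAM 24 h replicate 3, the higher of the 2 arrays of its group, when the value was 0.45 (adjusted p = 0.135), and with median centring (adjusted p = 0.0649). In a fit of the 4 groups at 24 h alone, NQO1 and TXNRD1 did not pass (adjusted p = 0.107 and 0.0757).

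For AKR1C1 and AKR1C2 the interaction was 0.32 and 0.31 and missed the limit (adjusted p = 0.0684 and 0.0799). Their intervals, 0.13 to 0.52 and 0.11 to 0.50, lay above 0 and below the size of the fall in siNEG cells. With probe sets under a mean of 100 units left out before adjustment both passed (adjusted p = 0.0116 and 0.0143), as did HMOX1, which made 7 genes instead of 4. The share of all genes that pass with this filter was not counted. HMOX1 gave 0.97 with a wide interval of 0.36 to 1.58 (adjusted p = 0.0808) and passed without siNEG EtOH 24 h replicate 3 (1.20, adjusted p = 0.0126). GCLM, AKR1C3 and AKR1B10 had values of -0.091, 0.12 and -0.32, all with intervals that included 0.

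At 4 h no member had an interaction by limma (0 of 10, and 0 at an unadjusted p under 0.05), where 0.192% of all genes were above 0 and 0.329% below. For GCLC, the gene that TAM had lowered by then, it was 0.13, with an interval of -0.11 to 0.36. The difference between the interactions at 24 and 4 h passed for no member, although 6 had an unadjusted p under 0.05 and ALDH3A1 came closest at 1.33 (adjusted p = 0.0523). Over all genes 0.723% were above 0 and 0.662% below in that test.

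With EtOH, the number of genes that differed with STAT3 knockdown depended on the processing. At 4 h NQO1 was higher and HMOX1 lower (1 member each, where 1.88% of all genes were higher and 2.41% lower). HMOX1 was at 349, 411 and 443 units on siNEG arrays and 196, 193 and 125 on siSTAT3 arrays, a log2 difference of -1.25 (SE 0.19, adjusted p = 0.00113), and the groups were well apart. NQO1 was at 11377, 10589.8 and 11999 units against 14502, 14625 and 13796, also without overlap (log2 0.34, adjusted p = 0.0391), but this call ended when any 1 of 12 arrays was left out, all 6 of those compared among them (adjusted p up to 0.166). At 24 h TXNRD1 alone passed (1 higher and 0 lower, where 1.4% and 1.46% of all genes did), with 4589, 4006 and 3601 units in siNEG and 5315, 4923 and 5403 in siSTAT3 cells (log2 0.36, adjusted p = 0.0431). This call too was fragile and ended without any 1 of 19 of the 23 arrays (adjusted p up to 0.195). AKR1C1 (0.24), AKR1C2 (0.24), NQO1 (0.32) and GCLC (0.28) did not pass. In these 4 genes no siNEG array with EtOH at 24 h reached a siSTAT3 array, but how many of all genes separate so was not counted. All 4 passed with probe sets under 100 units left out (adjusted p = 0.00765 to 0.019). The count of genes higher with siSTAT3 and EtOH was then 5 at 24 h and 3 at 4 h, with quantile normalization 4 at 24 h, with median centring 0 at 24 h and 3 at 4 h, and in a fit of the compared groups alone 0 at both times. Shares over all genes in these settings were not counted.

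With TAM for 4 h, siSTAT3 cells had more GCLC and TXNRD1 and less HMOX1 than siNEG cells (2 higher and 1 lower, against 4.69% and 4.61% of all genes). TXNRD1 was at 7767, 7567 and 7162 units in siNEG and 10845, 11054 and 10779.7 in siSTAT3 cells (log2 0.54, adjusted p = 0.000761). HMOX1 was at 437, 460.2 and 360.4 units against 204, 218 and 259.6 (log2 -0.88, adjusted p = 0.00847). GCLC differed by 0.38 (adjusted p = 0.00522). In each of the 3 genes the arrays of the siRNAs did not overlap, and how many of all genes separate so was not counted.

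With TAM for 24 h, 6 of the 10 genes were higher in siSTAT3 than in siNEG cells and none lower, where 9.72% of all genes were higher and 6.77% lower. This comparison shares the siNEG TAM 24 h arrays with the TAM effect in siNEG cells and is not a separate observation of it. TXNRD1 differed by 1.14 (adjusted p = 3.6e-07), ALDH3A1 by 1.04 (adjusted p = 0.000277), GCLC by 0.92 (adjusted p = 9.76e-07) and NQO1 by 0.89 (adjusted p = 4.43e-06) on the log2 scale. AKR1C1 and AKR1C2 were higher by 0.57 and 0.55 (adjusted p = 1.95e-05 and 2.34e-05). On both siSTAT3 arrays all 6 genes were above every siNEG array with TAM, but how many of all genes separate so was not counted. In a fit of these 5 arrays alone 1 of the 6 passed, TXNRD1, and the others had adjusted p of 0.0561 to 0.119. AKR1C3, AKR1B10, GCLM and HMOX1 did not pass, at 0.19, -0.53, -0.092 and 0.54.

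Mean HMOX1 signal in siSTAT3 cells with TAM was 227 ± 28.8 units at 4 h (SD, n = 3), below 419 ± 52.2 (SD, n = 3) in siNEG cells. At 24 h it was 189.9 ± 20.5 (SD, n = 2), above 129.9 ± 7.13 (SD, n = 3), but this difference did not pass the test (log2 0.54). The siSTAT3 effect with TAM was higher at 24 than at 4 h by 1.43 (SE 0.29, adjusted p = 0.00893) in a test chosen after the values were seen. The same test passed for ALDH3A1 (1.47), NQO1 (0.65), TXNRD1 (0.60), AKR1C1 (0.55), GCLC (0.54) and AKR1C2 (0.52), in all 7 of 10 genes, where 2.96% of all genes were higher and 2.13% lower. These genes have 7 other probe sets with a geometric mean of at least 100 units. Only 2 of those sets passed this test, although all 7 had the same sign as the main set. With EtOH it passed for no member by limma (1 had an unadjusted p under 0.05), against 0.00506% and 0.0101% of all genes.

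**Figure D3:**
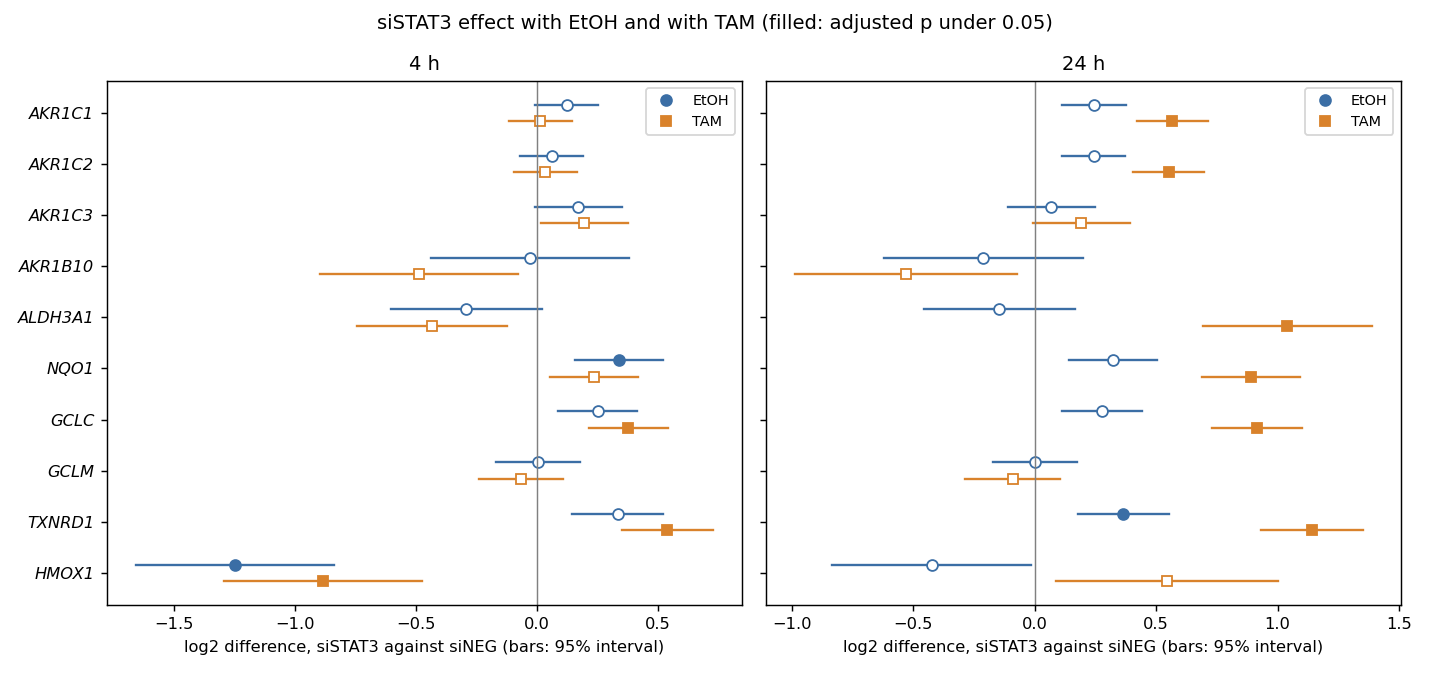
Log2 difference of each gene between siSTAT3 and siNEG cells (horizontal axis) with EtOH (blue circles) and with TAM (orange squares), at 4 h and at 24 h; points are limma estimates, bars their 95% intervals, and filled points have an adjusted p under 0.05. With TAM at 24 h, 6 genes lie between 0.55 and 1.14, and at 4 h HMOX1 lies at -1.25 with EtOH and -0.88 with TAM.

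HMOX1 and TXNRD1 were lower at 24 than at 4 h with EtOH under both siRNAs. Time with EtOH and time since transfection differ together here and cannot be told apart. Between 4 and 24 h with EtOH, HMOX1 went from 401 ± 48.1 units (SD, n = 3) to 148 ± 37.8 (SD, n = 3) in siNEG cells, a log2 change of -1.47 (adjusted p = 0.0001). TXNRD1 went from 7963 ± 268 units (SD, n = 3) to 4065 ± 497 (SD, n = 3), a change of -0.98 (adjusted p = 2.35e-06), and AKR1C3 rose by 0.34 (adjusted p = 0.0159). These were 1 higher and 2 lower of the 10, where 6.82% of all genes were higher and 5.52% lower. In siSTAT3 cells with EtOH the count was also 1 higher and 2 lower (8.14% and 5.28% of all genes), with TXNRD1 at -0.95 (adjusted p = 2.23e-06), HMOX1 at -0.65 (adjusted p = 0.0427) and ALDH3A1 at 0.61 (adjusted p = 0.012). HMOX1 in siSTAT3 cells lost its call without any 1 of 11 arrays (adjusted p up to 0.169), ALDH3A1 without 3 and AKR1C3 in siNEG cells without 2 of the arrays compared.

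With TAM, 7 genes were lower at 24 than at 4 h in siNEG cells and none higher (9.86% and 11.3% of all genes). ALDH3A1 changed by -2.50, HMOX1 by -1.68 and TXNRD1 by -1.58 (adjusted p = 3.28e-09, 7.88e-06 and 1.88e-09). In siSTAT3 cells 4 were lower and none higher (5.15% and 9.08%), led by ALDH3A1 (-1.03, adjusted p = 0.000486) and TXNRD1 (-0.98, adjusted p = 6.23e-06). HMOX1 there had a change of -0.26 with an interval of -0.71 to 0.20. GCLM was lower at 24 h than at 4 h by 0.24 to 0.26 under each of the 4 combinations of siRNA and treatment, and passed the test in none (adjusted p = 0.0618 to 0.0888), but in all 4 with probe sets under 100 units left out (adjusted p = 0.0165 to 0.0234). Its other probe sets were lower at 24 h in 3 of the 4 combinations, at -0.68 and -0.57 with EtOH in siNEG cells and at -0.54 and -0.56 with TAM, and at -0.74 and -0.75 with TAM in siSTAT3 cells (adjusted p = 0.00504 to 0.0259), and did not pass with EtOH in siSTAT3 cells.

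Ordered by mean signal over the 8 groups, siNEG cells with TAM for 24 h came last for AKR1C1, AKR1C2, AKR1C3, ALDH3A1, NQO1, GCLC and TXNRD1. For AKR1C1, AKR1C2 and ALDH3A1 the next lowest group was siSTAT3 cells with TAM for 24 h, and in each the arrays of these 2 groups were apart from one another and from the group above. AKR1C1, for instance, had means of 4662 ± 54.4 (SD, n = 3) and 6905 ± 55.3 units (SD, n = 2), against 9380.5 to 9703 over the arrays of siNEG cells with EtOH at 24 h. The remaining AKR1C1 groups, from 9493 to 11242 units on average, overlapped each neighbour in that order. NQO1 had 1 gap in its order, between siNEG cells with TAM at 24 h (6664 ± 404 units, SD, n = 3) and siNEG cells with EtOH at 24 h (10650.2 ± 360 units, SD, n = 3).

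Of the 10 genes, GCLC and TXNRD1 separated the groups most finely, with 5 of 7 neighbouring pairs apart. Orders and gaps were taken for the 10 genes alone, so no share over all genes stands beside them. GCLC was highest in siSTAT3 cells with EtOH at 4 h (5325 ± 521 units, SD, n = 3) and TXNRD1 in siSTAT3 cells with TAM at 4 h (10893 ± 143 units, SD, n = 3). GCLM had 0 of 7 neighbouring pairs apart, with means from 3639 to 4568 units. AKR1B10 was lowest in siSTAT3 cells with TAM at 24 h (159.7 ± 21.3 units, SD, n = 2) and highest in siNEG cells with EtOH at 24 h (351 ± 90.7 units, SD, n = 3). HMOX1 was lowest in siSTAT3 cells with EtOH at 24 h (108 ± 7.36 units, SD, n = 3) and highest in siNEG cells with TAM at 4 h (419 ± 52.2 units, SD, n = 3).

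The 10 genes had 23 probe sets in all, and 9 of the 13 that were not the main one had a geometric mean of at least 100 units. Of these 9, 7 belonged to genes that fell with TAM at 24 h in siNEG cells, and all 7 fell too. For AKR1C1 the other sets gave -0.92 and -1.14, for AKR1C2 -0.71, for NQO1 -1.12 and -0.86, and for GCLC -1.05 and -0.58 on the log2 scale. Among them, 216594_x_at of AKR1C1 and 211653_x_at of AKR1C2 are x_at sets too, so they are not independent readings of these 2 genes. The GCLM sets stayed near 0, at 0.013 and 0.066. In siSTAT3 cells with TAM at 24 h, 1 of the other NQO1 sets passed (-0.42, adjusted p = 0.00478), while the main set had not. The fall of GCLC there passed with neither of its other sets (-0.42 and -0.18, adjusted p = 0.134 and 0.759).

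The interaction at 24 h passed with both other NQO1 sets (0.71 and 0.65, adjusted p = 0.000239 and 0.00834) and with 1 of 2 for GCLC (0.63, adjusted p = 0.0478). The sets of AKR1C1 disagreed on it, with 0.20 and -0.54, where the main set had 0.32. With TAM at 24 h the difference between siSTAT3 and siNEG cells was 0.30 (adjusted p = 0.0379) and -0.088 by these 2 sets, so the higher AKR1C1 level of siSTAT3 cells depends on the probe set. For AKR1C2 the other set gave 0.28 (adjusted p = 0.119). Both NQO1 sets were higher in siSTAT3 cells with EtOH, at 4 h (0.27 and 0.35) and at 24 h (0.32 and 0.39), with adjusted p of 0.0138 to 0.0467.

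**Figure D4:**
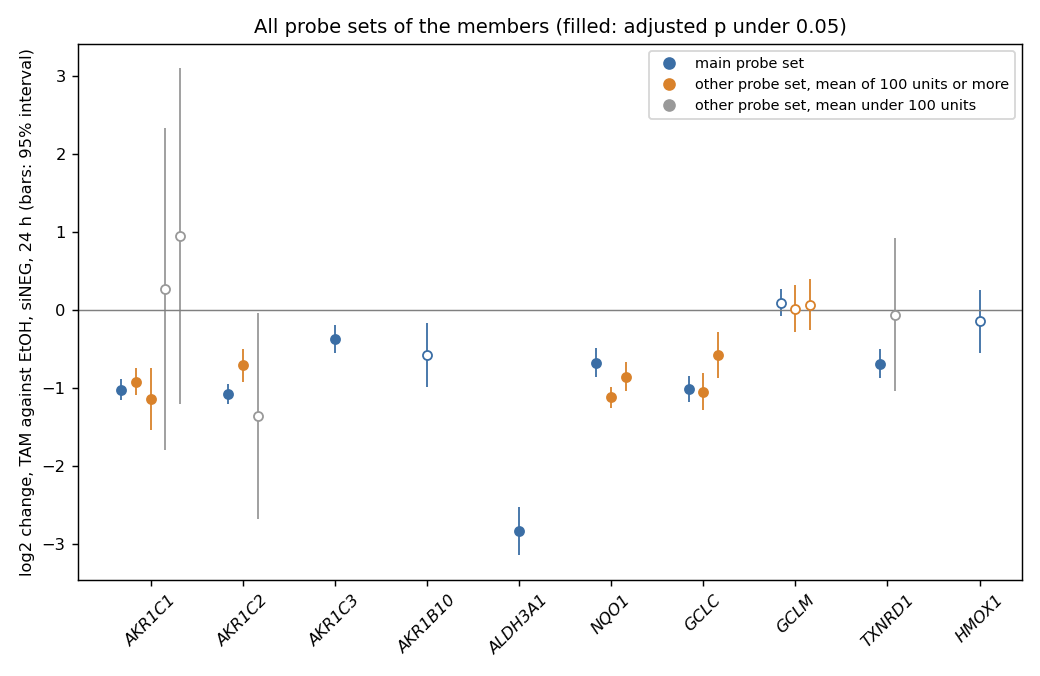
Log2 change with TAM against EtOH at 24 h in siNEG cells (vertical axis) for all 23 probe sets of the 10 genes, grouped by gene, with blue for the main set, orange for other sets of at least 100 units and grey for dimmer ones; points are limma estimates, bars their 95% intervals, and filled points have an adjusted p under 0.05. The sets of AKR1C1, AKR1C2, NQO1 and GCLC that were above 100 units all lie below 0, those of GCLM lie around 0, and the dim sets have the longest bars.

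Around these genes stand 99 others of the same pathways, listed by function, of which 91 were measured by a probe set of 1 gene. With TAM at 24 h in siNEG cells 29 of them fell and 4 rose (median log2 change -0.21), at 4 h 3 fell and 1 rose, and in siSTAT3 cells at 24 h 5 fell and 0 rose (median -0.020). Over all genes the shares that fell and rose were 9.31% and 6.06%, 1.58% and 1.67%, and 0.748% and 2% in these comparisons. NFE2L2 and KEAP1 themselves, named here outside the naming rule because the pathway turns on them and chosen after their values were seen, did not pass the test in any comparison. NFE2L2 was at 6176, 6640.4 and 6815 units with EtOH and 6291, 6772 and 6336 with TAM at 24 h in siNEG cells (log2 -0.017, interval -0.18 to 0.15). KEAP1 had a change of 0.0024 (interval -0.14 to 0.15). RNA levels do not measure the NRF2 protein, which KEAP1 controls after translation. Of the 6 measured regulators BACH1, the repressor, rose with TAM at 4 h (0.54, adjusted p = 0.00888) and at 24 h (0.76, adjusted p = 9.13e-05), and SQSTM1, an autophagy receptor that binds KEAP1, fell at 24 h (-0.52, adjusted p = 0.000471).

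Among 21 genes of glutathione synthesis and use, 4 fell and 1 rose with TAM at 24 h in siNEG cells. SLC3A2, a chain of the cystine importer, changed by -1.12 (adjusted p = 2.92e-08) and the glutathione reductase GSR by -1.01 (adjusted p = 6.07e-07), while the glutaredoxin GLRX rose by 0.73 (adjusted p = 1.05e-06). Of 9 thioredoxin and peroxiredoxin genes 3 fell, SRXN1, PRDX6 and PRDX3 (-0.52, -0.35 and -0.24). Of 6 genes of NADPH supply 3 fell, IDH1, ME1 and TALDO1 (-0.61, -0.37 and -0.30), and of 6 of heme and iron handling 3 fell, BLVRA, FECH and BLVRB (-0.58, -0.48 and -0.38). None of the last 3 groups had a gene that rose.

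Of 16 genes of drug metabolism and efflux 8 fell and 1 rose, with the iron-binding protein PIR at -1.34 (adjusted p = 7.43e-09) and the transporters ABCG2 at -1.01 and ABCC2 at -0.98. Catalase (CAT, -0.57) was the 1 of 4 other antioxidant enzymes that fell. Of 6 other aldo-keto reductases 0 passed by limma, and 0 had an unadjusted p under 0.05. Of 10 other aldehyde dehydrogenases 4 fell and 0 rose, led by ALDH1A3 (-1.42, adjusted p = 1.06e-05) and ALDH3A2 (-1.25, adjusted p = 4.56e-08).

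The interaction at 24 h was above 0 for 15 of the 91 genes and below 0 for 2 (3.42% and 2.49% of all genes), with a median of 0.18. Those above 0 included ALDH1A3 (1.87, adjusted p = 0.000147), the carbonyl reductase CBR3 (0.94, adjusted p = 0.0022), SLC3A2 (0.86, adjusted p = 0.000214), PIR (0.73, adjusted p = 0.00188) and SQSTM1 (0.65, adjusted p = 0.00608). GLRX, which rose with TAM, had an interaction below 0 (-0.58, adjusted p = 0.00241). With TAM at 24 h, 26 of the 91 were higher in siSTAT3 than in siNEG cells and 9 lower (9.72% and 6.77% of all genes), with the small MAF protein MAFF at 1.09 (adjusted p = 2.44e-07).

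**Figure D5:**
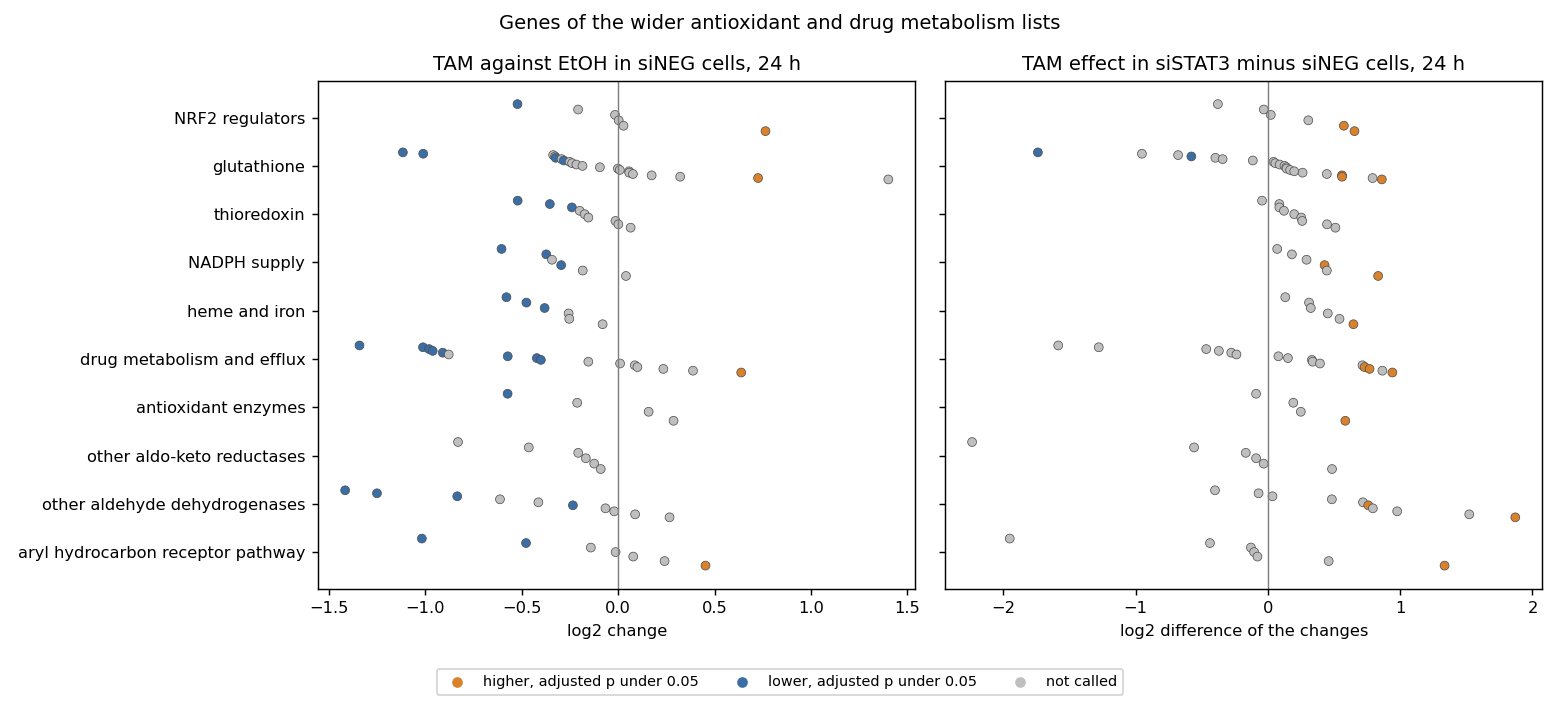
Log2 change with TAM against EtOH at 24 h in siNEG cells (left) and the interaction of siSTAT3 with TAM at 24 h (right), for 91 genes of 10 lists (rows), 1 point per gene; orange and blue mark an adjusted p under 0.05, higher and lower. The left panel holds 29 blue and 4 orange points and the right panel 2 blue and 15 orange ones.

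Genes with a course like that of each member were sought among 2028 others with a mean signal of at least 100 units and a range of group means of at least 1 log2 unit, by Pearson r over the 8 group means. For TXNRD1 they were ABCA5 (r = 0.995) and CARD10 (0.995), for GCLC ACTL10 (0.989) and BIN1 (0.972), for NQO1 SVEP1 (0.988) and COTL1 (0.982), and for ALDH3A1 SLC27A2 (0.984) and TMT1A (0.970). SMKR1 and SYT12 were the closest for both AKR1C1 (0.943 and 0.938) and AKR1C2 (0.946 for both). The course of GCLM was closest to those of TMEM41A (0.989) and XBP1 (0.985), that of AKR1C3 to SSBP2 (0.961) and SESN3 (0.947), that of AKR1B10 to RIPOR2 (0.944) and CCNA1 (0.880), and that of HMOX1 to PDLIM5 (0.929) and PTX3 (0.903). These r describe 8 points made from the same arrays. Among the members themselves AKR1C1 and AKR1C2 had r = 0.998, and AKR1C1 and AKR1C3 0.449.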

How the data were processed

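The authors prepared RNA with the 3′ IVT Express kit, hybridized it to U133 Plus 2.0 arrays and deposited, for every probe set, a linear intensity from each array that was background corrected, normalized and summarised with MAS5. Its version and scaling target are not given in the sources used here. Array number, 2 or 3 per group, limits the precision. Of 54675 probe sets, 41097 carry 1 gene symbol in the platform annotation, 1801 several and 11777 none, and only the first kind was used for genes.

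Signals were log2 transformed with nothing added, and limma 3.58.1 in R 4.3.3 fitted 1 mean per group to all 23 arrays (15 residual and 1.27 prior degrees of freedom), with two-sided moderated tests and Benjamini-Hochberg adjustment over all probe sets per comparison. The fit was tested on simulated data. Alternatives were log2(signal + 16), a filter at a mean of 100 units, quantile normalization, median centring, a trended and robust variance, the study's limits (p under 1e-04 and a log2 change over 0.5), a replicate block, fits of the compared groups alone, other probe sets and leaving out each array. The named genes are the 10 members, STAT3, per function list and comparison up to 3 called genes of at least 100 units with the largest change, and per member the 2 genes of most similar course. The members and lists were chosen with earlier results of these data known. Differences between times in the TAM and siSTAT3 effects were added after the values were seen. Promoter windows came from a RefSeq table (GRCh38.p14), aligned with Biopython 1.88, and figures from matplotlib 3.10.9. Some listed genes had no probe set of 1 gene and are not reported here, among them KRT17, TP63 and CD68 of the marker lists and MAFK, TXNRD3, PRDX5, FTH1, AKR1A1, AKR1B1 and AKR1B15 of the function lists.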

Additional observations from a re-analysis of the deposited data

Results flagged for a closer look

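The TAM effect at 24 h differed between siSTAT3 and siNEG cells for 4 genes by the interaction test, with log2 differences of 1.19 for ALDH3A1, 0.57 for NQO1, 0.64 for GCLC and 0.78 for TXNRD1. In siNEG cells the TAM effect differed between 24 and 4 h for 6 genes, by -1.07 for AKR1C1, -1.07 for AKR1C2, -2.97 for ALDH3A1, -0.76 for NQO1, -0.44 for GCLC and -0.61 for TXNRD1. In siSTAT3 cells it differed for 3 genes, by -0.64 for AKR1C1, -0.73 for AKR1C2 and -1.64 for ALDH3A1. The siSTAT3 effect with TAM differed between 24 and 4 h for 7 genes, by 0.55 for AKR1C1, 0.52 for AKR1C2, 1.47 for ALDH3A1, 0.65 for NQO1, 0.54 for GCLC, 0.60 for TXNRD1 and 1.43 for HMOX1. In these tests, in order, 3.42%, 2.97%, 0.42% and 2.96% of all genes were higher. The shares that were lower were 2.49%, 2.62%, 0.116% and 2.13%. The last 3 tests were chosen after the values were seen. The planned difference of the interactions passed for no member. All groups had 3 arrays or fewer, so no group was tested for an array that stands apart.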

How the results depend on the processing

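With TAM at 24 h in siNEG cells, 7 members were lower in the main setting and without any 1 array, and 7 to 8 were lower at 24 than at 4 h with TAM. The siSTAT3 effect with TAM at 24 h was called higher in 6 members without any 1 array, the interaction at 24 h in 3 to 5, and its difference from 4 h in 0 to 1. Leaving out 1 array gave 0 to 1 member higher and 3 to 5 lower with TAM at 24 h in siSTAT3 cells, 0 to 1 lower at 4 h, and 4 to 5 lower at 24 than at 4 h with TAM. With EtOH it gave 0 to 2 members higher with siSTAT3 at 4 h and 0 to 1 at 24 h, and, at 24 against 4 h, 0 to 2 higher in siNEG cells and 0 to 1 higher and 1 to 2 lower in siSTAT3 cells. Of 3450 values without 1 array, 3310 kept their direction and side of the limit, 68 lost the limit, 15 gained it, 57 moved otherwise and 0 were reversed. Without 1 array, shares over all genes were not counted.

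Counts of members that differed by over 1.5 times follow, by setting, with the cause not tested. Shares over all genes in these settings were not counted, so the counts describe the members alone. The filter at 100 units, which adjusts over fewer probe sets, gave 7 members above 0 (main setting 4) for the interaction at 24 h, 3 (0) for its difference from 4 h, 1 (0) higher with TAM at 24 h in siSTAT3 cells, 3 (1) and 5 (1) higher with siSTAT3 and EtOH at 4 and 24 h, 2 (1) lower with siSTAT3 and TAM at 4 h, and 2 (1) higher and 4 (2) lower over time with EtOH under either siRNA. A trended and robust variance gave the same counts, except for 1 (1) lower with siSTAT3 and TAM at 4 h. Adding 16 units gave 2 (1) higher with siSTAT3 and EtOH at 4 h. Quantile normalization gave 4 (1) higher with siSTAT3 and EtOH at 24 h, 2 (1) higher over time with EtOH in siSTAT3 cells and 1 (0) for the difference of interactions. Median centring gave 3 (5) lower with TAM at 24 h in siSTAT3 cells, 3 (1) and 0 (1) higher with siSTAT3 and EtOH at 4 and 24 h, 0 (1) higher over time with EtOH under either siRNA and 4 (2) lower in siSTAT3 cells. The study's limits gave 0 (1) and 3 (5) lower with TAM at 4 and 24 h in siSTAT3 cells, 0 (1) higher with siSTAT3 and EtOH at either time, 1 (2) higher and 0 (1) lower with siSTAT3 and TAM at 4 h, 0 (1) higher over time with EtOH under either siRNA and 1 (2) lower in siSTAT3 cells. Fits of the compared groups alone, with fewer arrays, gave 0 (1) lower with TAM at 4 h under either siRNA, 0 (5) at 24 h in siSTAT3 cells, 0 (1) higher and 0 (1) lower with siSTAT3 and EtOH at 4 h, 0 (1) higher at 24 h, 0 (2) higher and 0 (1) lower with siSTAT3 and TAM at 4 h, 1 (6) higher at 24 h, 2 (4) for the interaction at 24 h, 0 (4) lower over time with TAM in siSTAT3 cells, and, over time with EtOH, 0 (1) higher under either siRNA and 0 (2) lower in siNEG and 1 (2) in siSTAT3 cells.

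Arrays with the same replicate number were slightly more alike than others, and what a number marks is not given. Over 77 pairs with the same number the correlation of deviations from the group mean had a median of 0.0375 (-0.0238 for other numbers), 18 exceeded 0.1, and 12 of 23 arrays were closest to their own number. With the number as a block, 0 (1) members were higher with siSTAT3 and EtOH at 4 h (NQO1, adjusted p = 0.0614) and 0 (1) at 24 h (TXNRD1, adjusted p = 0.0624), 1 (2) was lower over time with EtOH in siSTAT3 cells, and AKR1B10 with TAM at 24 h in siSTAT3 cells lost its call (adjusted p = 0.0643). Over all genes the block left 0.842 to 0.992 times the calls per comparison.

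Reversals came from other probe sets and none passed the test. For AKR1C1 they were -0.088 by 217626_at with siSTAT3 and TAM at 24 h, 0.27, -1.07 and 0.040 by the dim 1555855_at and 0.94, -1.23 and 1.08 by the dim 1555856_s_at for TAM at 24 h in siNEG cells, siSTAT3 with TAM at 24 h and time with TAM in siNEG cells, and 0.13 by the latter for TAM at 24 h in siSTAT3 cells. For TXNRD1 the dim 1561080_at gave -0.025 and -0.16 for siSTAT3 with EtOH and with TAM at 24 h, 0.10 and 0.76 for time with EtOH in siNEG and siSTAT3 cells, and -0.14 for the interaction at 24 h. Signals near 100 units or below, as of ALDH3A1 with TAM and HMOX1 at 24 h, are the least certain.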

Other observations

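ALDH1A3, which makes retinoic acid, differed more between the siRNAs with TAM at 24 h than any of the 10 genes. It was at 888, 1180.1 and 973 units in siNEG and 8247 and 9752 units in siSTAT3 cells, an 8.91-fold difference (log2 3.16, SE 0.18, adjusted p = 2.52e-09 by limma). With EtOH at 24 h, 3229.6, 3092 and 1943 units stood against 7249, 6694 and 5789 (log2 1.29, adjusted p = 0.000251). It was also lower at 24 than at 4 h with EtOH, at -2.25 on the log2 scale in siNEG cells (adjusted p = 2.45e-07).

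TXNIP, the thioredoxin inhibitor, was the gene of its list with the biggest siSTAT3 effect with TAM at 4 h, where 927, 804 and 769 units in siNEG cells stood against 3363, 3473 and 3339.7 in siSTAT3 cells (log2 2.03, adjusted p = 5.53e-10). TAM lowered it at 4 h in siNEG cells (-0.74, adjusted p = 6.83e-05), and the interaction at 4 h was 1.14 (adjusted p = 0.00022).

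Of 7 genes of the aryl hydrocarbon receptor pathway, 2 fell and 1 rose with TAM at 24 h in siNEG cells (9.31% and 6.06% of all genes), the repressor AHRR (-1.02), the receptor AHR (-0.48) and TIPARP (0.45). CYP1B1, a P450 that the receptor induces, was lower in siSTAT3 cells in all 4 comparisons, at -0.72 and -0.65 with EtOH and -0.89 and -1.09 with TAM at 4 and 24 h (adjusted p = 0.000503 or less). CYP1A1, the classical target of the receptor, was seen above 100 units only at 4 h, with 91.1, 105 and 78.5 units in siNEG and 158, 139 and 151 in siSTAT3 cells with EtOH.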
